A study of Mus musculus with 12 samples.

Results

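The TNF superfamily ligands Tnf, Tnfsf9, Tnfsf13b and Tnfsf15, the receptors Tnfrsf1a, Tnfrsf1b and Fas, the adaptor Traf1 and the TNF-induced gene Tnfaip2 were followed in cultured mouse macrophages with and without the NLRP3 inflammasome sensor. These 9 genes were taken by symbol from a table of 55335 genes, in which each symbol stood once. RNA-seq was available from 12 libraries of bone marrow-derived macrophages (BMDMs), the adherent cells that grow out of bone marrow under macrophage colony-stimulating factor. The 4 groups, each of 3 libraries, were unstimulated (control) and costimulated (LPS+ATP) BMDMs of wild-type and of Nlrp3-/- mice. The methods name C57BL/6 mice as marrow donors. Nlrp3-/- is a knockout line with no cell-type restriction, and it came from another supplier than the wild-type mice, which were not described as littermates. Control BMDMs had no stimulus. Costimulated BMDMs had, per the labels, lipopolysaccharide (LPS) for 4 hours followed by ATP for 30 minutes, whereas the study's methods give 12 hours and 2 hours. The methods give an age of 8 weeks for the marrow donors and 7 days of culture. Whether the 3 libraries of a group came from separate mice or cultures is not stated, so that p-values measure only the spread between these libraries, which may be technical.

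TNF is made by macrophages as a membrane protein and is released by the protease ADAM17. It binds TNFR1 (Tnfrsf1a), a receptor with a death domain that most cells carry, and TNFR2 (Tnfrsf1b), which lacks a death domain, is restricted to immune and some other cells and recruits TRAF2 together with TRAF1. Tnfsf9 encodes 4-1BB ligand, Tnfsf13b encodes the B cell survival factor BAFF, Tnfsf15 encodes TL1A, and Fas is the death receptor for Fas ligand. LPS acts through TLR4 and NF-κB on many of these genes, while ATP opens P2X7R and so triggers NLRP3. TNF itself is not cut by caspase-1, which matures IL-1β and IL-18.

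Among the 8 genes past the filter described below, Tnf and Traf1 had the largest log2 fold changes of FPKM + 1 in wild-type BMDMs. Tnfrsf1b had the highest level and Tnfrsf1a the smallest change. By ratio of mean FPKM, Tnfsf15 rose more than Traf1 (26.0-fold against 11.1-fold). The stretches of 250 bases before the start sites of Tnf, Traf1, Tnfrsf1b and Tnfrsf1a are shown because these 4 genes span the responses described here. They are RefSeq sequences of GRCm38.p6, written along the gene, at chr17:35202008-35202257 on the minus strand for Tnf, chr2:34961773-34962022 on the minus strand for Traf1, chr4:145246871-145247120 on the minus strand for Tnfrsf1b and chr6:125349473-125349722 on the plus strand for Tnfrsf1a. Capitals mark matches to the motifs described after the sequences.
Tnf: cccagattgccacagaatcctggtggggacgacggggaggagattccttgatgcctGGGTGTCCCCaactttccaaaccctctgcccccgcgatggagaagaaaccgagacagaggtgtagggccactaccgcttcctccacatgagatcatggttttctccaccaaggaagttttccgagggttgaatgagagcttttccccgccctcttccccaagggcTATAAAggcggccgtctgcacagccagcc
Traf1: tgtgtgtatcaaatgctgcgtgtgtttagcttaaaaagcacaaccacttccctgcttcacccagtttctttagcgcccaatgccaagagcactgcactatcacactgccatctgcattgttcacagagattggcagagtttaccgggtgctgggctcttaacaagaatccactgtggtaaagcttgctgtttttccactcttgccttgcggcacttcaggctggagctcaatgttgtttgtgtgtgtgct
Tnfrsf1b: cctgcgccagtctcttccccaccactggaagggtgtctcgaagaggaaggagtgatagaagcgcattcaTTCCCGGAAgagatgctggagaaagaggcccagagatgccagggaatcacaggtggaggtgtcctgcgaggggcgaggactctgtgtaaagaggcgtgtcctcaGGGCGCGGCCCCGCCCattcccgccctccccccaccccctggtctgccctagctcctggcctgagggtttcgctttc
Tnfrsf1a: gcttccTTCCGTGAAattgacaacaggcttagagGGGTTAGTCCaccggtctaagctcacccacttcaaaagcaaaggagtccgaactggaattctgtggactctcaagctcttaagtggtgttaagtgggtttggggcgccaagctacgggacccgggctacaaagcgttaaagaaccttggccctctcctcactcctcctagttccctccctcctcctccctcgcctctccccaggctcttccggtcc

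Both strands were searched for GGGNNNNNCC (κB-like), TGANTCA (AP-1-like), TTCNNNGAA (GAS-like) and the letters TATAAA of a basal promoter, and for the degenerate NF-κB consensus. Of 32851 mouse windows of this length, 45.8% held GGGNNNNNCC, 12.4% TATAAA, 6.75% TGANTCA, 7.02% TTCNNNGAA and 3.90% the NF-κB consensus. In the Tnf window, GGGTGTCCCC stood at positions -194 to -185 from the start site, where it reads as a match on both strands, and TATAAA at -29 to -24. The Tnfrsf1b window had TTCCCGGAA at -181 to -173 and 3 overlapping κB-like matches that begin at -77, -76 and -71. The Tnfrsf1a window, of the gene that moved least, had a κB-like match, GGGTTAGTCC, at -216 to -207 and TTCCGTGAA at -244 to -236. The Traf1 window held none of these letters although its RNA rose 11.1-fold with LPS+ATP in wild-type BMDMs. Of the 9 genes, 8 had an entry, Tnfsf9 being the other, 5 had a κB-like match and 0 had the NF-κB consensus. A match is a string of letters and was not tested as a binding site.

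Values are FPKM, in which the fragments of a gene are divided by its length in kilobases and by the mapped fragments of the library, so that levels can be compared between genes per length. Differences were tested with limma on log2(FPKM + 1) over the 12622 genes with at least 1 FPKM in at least 3 of the 12 libraries, and every fold change called log2 below is on that scale, on which the pseudocount shrinks fold changes at low FPKM. A gene is said to have risen or fallen where the Benjamini-Hochberg adjusted p was under 0.05, and it was a differentially expressed gene (DEG) where the log2 fold change was also at least 1 in either direction. FPKM summed to 283278 to 299393 per library, 21122 to 22613 genes were above 0, and Pearson's r of tested genes was 0.990 to 0.993 within groups (reads per library are unknown). Nlrp3 was 9.68 FPKM in wild-type control, 32.9 FPKM in wild-type LPS+ATP and listed at 0 in all 6 Nlrp3-/- libraries. Xist was 53.8 and 33.4 FPKM in the Nlrp3-/- groups and at most 0.0416 FPKM in wild-type libraries, while the Y-linked Ddx3y was listed at 0 in Nlrp3-/- and at least 7.72 FPKM in wild-type libraries, so that sex of the donors and genotype cannot be told apart. All 8 macrophage markers were at or above 1 FPKM in every group, and the defining markers of B, T, NK and dendritic cells summed to at most 1.91, 0.0905, 0.515 and 0.512 FPKM. In bulk RNA, fewer cells of a type and less RNA per cell cannot be told apart.

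Tnf (ENSMUSG00000024401, chromosome 17) showed the steepest rise of the 9 genes. In wild-type control BMDMs it was 6.89, 7.83 and 7.74 FPKM, and in wild-type LPS+ATP it was 587, 566 and 564 FPKM. In Nlrp3-/- control it was 11.96, 11.6 and 10.9 FPKM and in Nlrp3-/- LPS+ATP 422, 428 and 416 FPKM. No library of any group overlapped with another group, with Nlrp3-/- above wild-type at rest and below it after stimulation. The ratio of mean FPKM with stimulation was 76.5 in wild-type (log2 fold change 6.08, SE 0.05, adjusted p = 1.29e-15 by limma) and 36.7 in Nlrp3-/- (log2 fold change 5.08, adjusted p = 4.909e-15 by limma). Among the 12622 tested genes this rise ranked 22 in wild-type and 31 in Nlrp3-/-. By level, Tnf moved from rank 4950 to rank 62 in wild-type and from 3723 to 82 in Nlrp3-/-. Of the summed FPKM of the 18 listed TNF superfamily ligands, Tnf held 8.31 to 9.23% in wild-type control and 91.7 to 92.3% with LPS+ATP, against 16.0 to 18.0% and 88.8 to 89.1% in Nlrp3-/-. At rest the leading ligand was Tnfsf12 (TWEAK) with 67.5 to 71.3% in wild-type and 53.5 to 58.2% in Nlrp3-/-, and with LPS+ATP it held at most 1.94%.

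**Figure D1:**
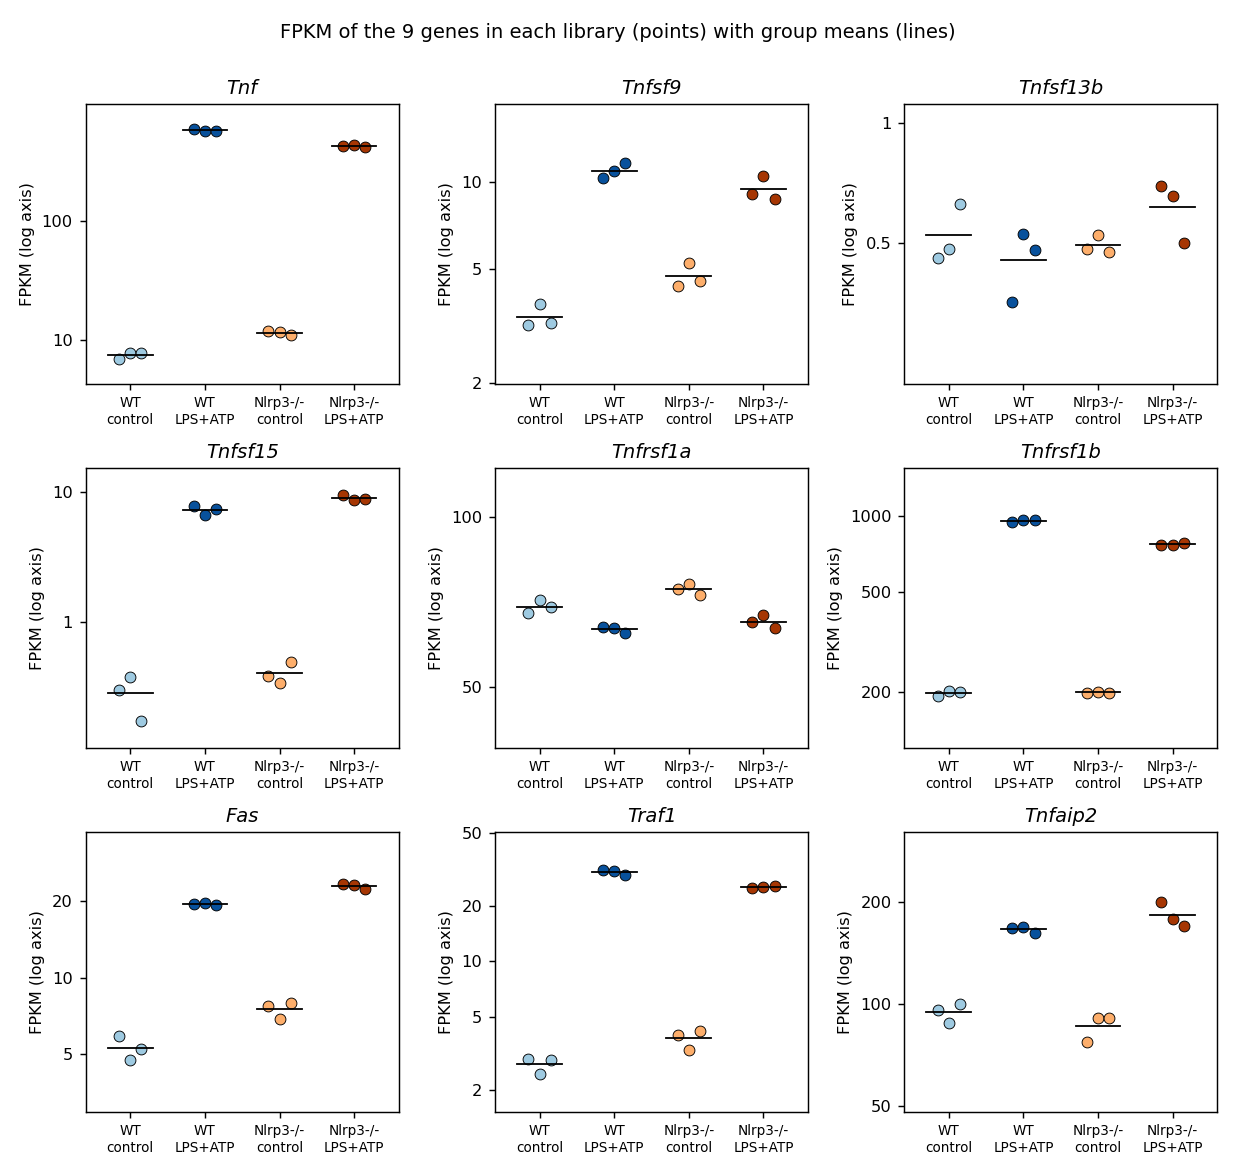
FPKM of the 9 genes on a log axis in each of the 12 libraries (points), with the mean of each group of 3 (lines). Tnf, Tnfsf9, Tnfsf15, Tnfrsf1b, Fas, Traf1 and Tnfaip2 lie higher with LPS+ATP without overlap in both genotypes, Tnfrsf1a stays between 62.5 and 76.3 FPKM, and Tnfsf13b stays under 1 FPKM.

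Tnfsf15 (ENSMUSG00000050395, chromosome 4) was under 1 FPKM at rest and several FPKM after LPS+ATP in both genotypes. It was 0.297, 0.379 and 0.171 FPKM in wild-type control and 7.89, 6.72 and 7.43 FPKM in wild-type LPS+ATP. In Nlrp3-/- BMDMs it was 0.384, 0.338 and 0.494 FPKM in control and 9.58, 8.76 and 8.91 FPKM with LPS+ATP. The control groups overlapped and the stimulated groups did not. The log2 fold change was 2.70 in wild-type and 2.84 in Nlrp3-/- (adjusted p = 4.307e-11 and 3.721e-11 by limma). Tnfsf15 passed the filter only through its 6 stimulated libraries, and so had to differ with stimulation. A pseudocount of 0.1 gave 4.32 and 4.19, the highest values among the alternatives.

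Tnfsf9 (ENSMUSG00000035678, chromosome 17), the ligand of the T cell costimulatory receptor 4-1BB, rose from a low level. Its FPKM was 3.19, 3.77 and 3.25 in wild-type control and 10.3, 10.9 and 11.6 in wild-type LPS+ATP. The Nlrp3-/- libraries had 4.37, 5.25 and 4.54 FPKM in control and 9.13, 10.5 and 8.77 FPKM with LPS+ATP. Nlrp3-/- lay above wild-type at rest without overlap, whereas the stimulated libraries overlapped. The log2 fold change was 1.44 in wild-type (adjusted p = 1.979e-08 by limma) and 0.87 in Nlrp3-/- (adjusted p = 2.086e-06 by limma), under the fold limit of a DEG in the latter. Its exons overlap those of Gm11110 on the other strand, and whether the counting used strand is not stated. Tnfsf13b (ENSMUSG00000031497, chromosome 8), whose product BAFF supports B cells, was between 0.356 and 0.696 FPKM over the 12 libraries and reached 1 FPKM in 0 of them. In a fit without the filter, over 30133 genes, its adjusted p by limma was 0.172 to 0.914 over the 5 comparisons.

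Tnfrsf1b (ENSMUSG00000028599, chromosome 4) was the most abundant of the 9 genes in every group. It was 192, 203 and 199.6 FPKM in wild-type control and 946, 966 and 963 FPKM in wild-type LPS+ATP. In Nlrp3-/- BMDMs, control libraries had 198, 201 and 199 FPKM and LPS+ATP libraries 769, 770.0 and 780.2 FPKM. The resting genotypes overlapped fully, and all 3 stimulated Nlrp3-/- libraries lay below all 3 of wild-type. With stimulation the log2 fold change was 2.27 in wild-type and 1.95 in Nlrp3-/- (adjusted p = 1.32e-14 and 5.31e-14 by limma), and its rank by FPKM moved from 161 to 29 and from 152 to 35.

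Tnfrsf1a (ENSMUSG00000030341, chromosome 6) varied little beside its partner receptor. Its FPKM was 67.6, 71.4 and 69.5 in wild-type control, 64.1, 63.8 and 62.5 in wild-type LPS+ATP, 74.8, 76.3 and 73.0 in Nlrp3-/- control and 65.2, 67.1 and 63.8 in Nlrp3-/- LPS+ATP. Stimulated libraries lay below resting ones in both genotypes, by log2 fold changes of -0.13 and -0.19 (adjusted p = 0.002727 and 0.0001893 by limma). This direction belongs to the FPKM scale, since the same values were 0.18 and 0.10 after upper-quartile scaling and 0.16 and 0.06 after median-ratio scaling. Relative to the median of all tested genes, -0.25 in wild-type and -0.24 in Nlrp3-/-, Tnfrsf1a stood at 0.13 and 0.05. The ratio of Tnfrsf1b to Tnfrsf1a within a library, which no scaling between libraries can alter, was 2.85 ± 0.0174 in wild-type control and 15.1 ± 0.322 in wild-type LPS+ATP (SD, n = 3 each). In Nlrp3-/- it was 2.67 ± 0.0527 in control and 11.8 ± 0.377 with LPS+ATP (SD, n = 3 each). The libraries of the 4 groups did not overlap in this ratio.

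**Figure D2:**
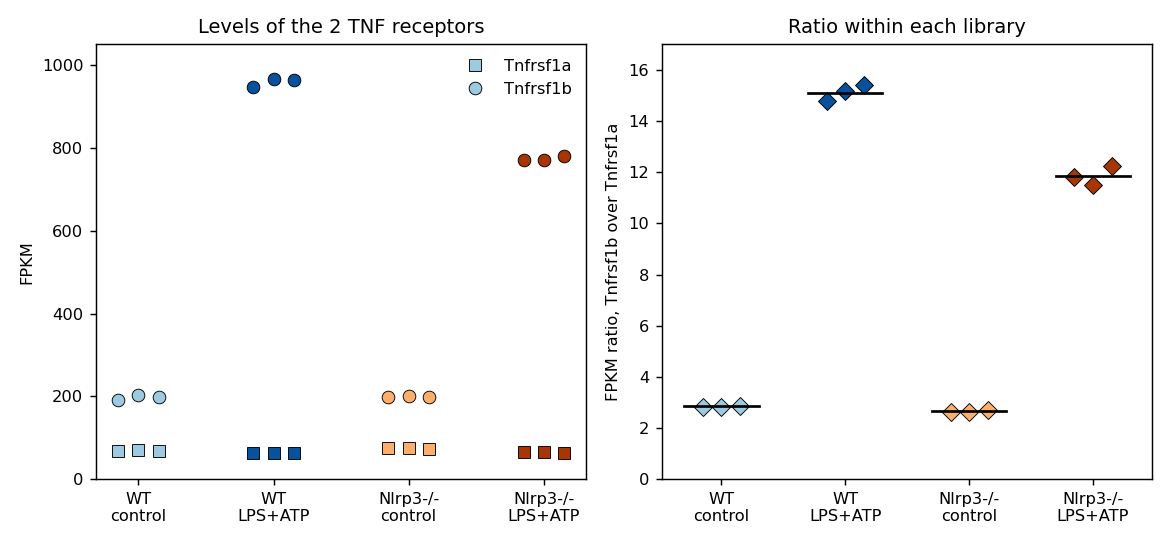
Left, FPKM of Tnfrsf1a (squares) and Tnfrsf1b (circles) in each library; right, the ratio of Tnfrsf1b to Tnfrsf1a within each library (diamonds) with group means (lines). Tnfrsf1a stays between 62.5 and 76.3 FPKM while Tnfrsf1b rises to between 946 and 966 FPKM in wild-type and between 769 and 780.2 FPKM in Nlrp3-/- BMDMs, so that the mean ratio moves from 2.85 to 15.1 and from 2.67 to 11.8.

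Fas (ENSMUSG00000024778, chromosome 19) rose in both genotypes, and Nlrp3-/- libraries were the higher ones in both states. It was 5.89, 4.76 and 5.23 FPKM in wild-type control, and 19.4, 19.7 and 19.3 FPKM in wild-type LPS+ATP. It was 7.75, 6.89 and 7.92 FPKM in Nlrp3-/- control and 23.2, 23.1 and 22.2 FPKM in Nlrp3-/- LPS+ATP. No groups overlapped. The log2 fold change with stimulation was 1.71 in wild-type and 1.49 in Nlrp3-/- (adjusted p = 5.94e-10 and 2.685e-09 by limma).

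Traf1 (ENSMUSG00000026875, chromosome 2), an adaptor that lacks the RING domain of the other TRAF proteins and is itself a known NF-κB target, followed the order of Tnf. Wild-type control libraries had 2.96, 2.44 and 2.90 FPKM and wild-type LPS+ATP libraries 31.3, 30.9 and 29.6 FPKM. Nlrp3-/- control libraries had 3.99, 3.31 and 4.16 FPKM and Nlrp3-/- LPS+ATP libraries 25.0, 25.3 and 25.6 FPKM. As for Tnf, Nlrp3-/- lay above wild-type at rest and below it after stimulation, without overlap. Mean FPKM rose 11.1-fold in wild-type (log2 fold change 3.07, adjusted p = 7.719e-12 by limma) and 6.62-fold in Nlrp3-/- (log2 fold change 2.45, adjusted p = 7.175e-11 by limma).

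Tnfaip2 (ENSMUSG00000021281, chromosome 12), a gene named for its induction by TNF in endothelial cells, was already abundant at rest. Its FPKM was 96.0, 88.1 and 100.1 in wild-type control, 168, 169 and 162 in wild-type LPS+ATP, 77.1, 91.2 and 91.1 in Nlrp3-/- control, and 200.03, 178 and 169.8 in Nlrp3-/- LPS+ATP. Stimulated libraries lay above resting ones in both genotypes. It rose by a log2 fold change of 0.81 in wild-type (adjusted p = 1.8e-06 by limma) and 1.07 in Nlrp3-/- (adjusted p = 1.884e-07 by limma), the latter being 0.99 without Nlrp3-/- control replicate 1, under the limit of a DEG. Its exons overlap those of Gm40578 on the other strand.

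With stimulation, 6 of the 9 genes were DEGs in wild-type BMDMs, all higher (Tnf, Tnfsf9, Tnfsf15, Tnfrsf1b, Fas and Traf1), where 8.25% of all tested genes were DEGs that rose and 11.2% DEGs that fell. In Nlrp3-/- BMDMs 6 were DEGs, all higher (Tnf, Tnfsf15, Tnfrsf1b, Fas, Traf1 and Tnfaip2), against 6.64% and 8.21% of all tested genes. By adjusted p alone, 7 of the 9 genes rose and 1, Tnfrsf1a, fell in each genotype (the sign of Tnfrsf1a flips after upper-quartile or median-ratio scaling), where 23.3% of tested genes rose and 53.1% fell in wild-type and 20.6% rose and 53.8% fell in Nlrp3-/-. The median log2 fold change of the 8 tested genes was 1.99 in wild-type and 1.72 in Nlrp3-/-. The 9 genes were chosen with earlier results of these data known, and Tnfsf15 was tested only through its LPS+ATP libraries. These counts and medians are therefore no support by themselves. The split of all DEGs depends on scaling, with 1041 higher and 1411 lower in wild-type as deposited and 1350 higher and 933 lower after median-ratio scaling (838 and 1036 against 1057 and 637 in Nlrp3-/-). That scaling brought the median of all genes to -0.04 in both genotypes, and after it both Tnfaip2 in wild-type and Tnfsf9 in Nlrp3-/- passed the fold limit, at 1.09 each.

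**Figure D3:**
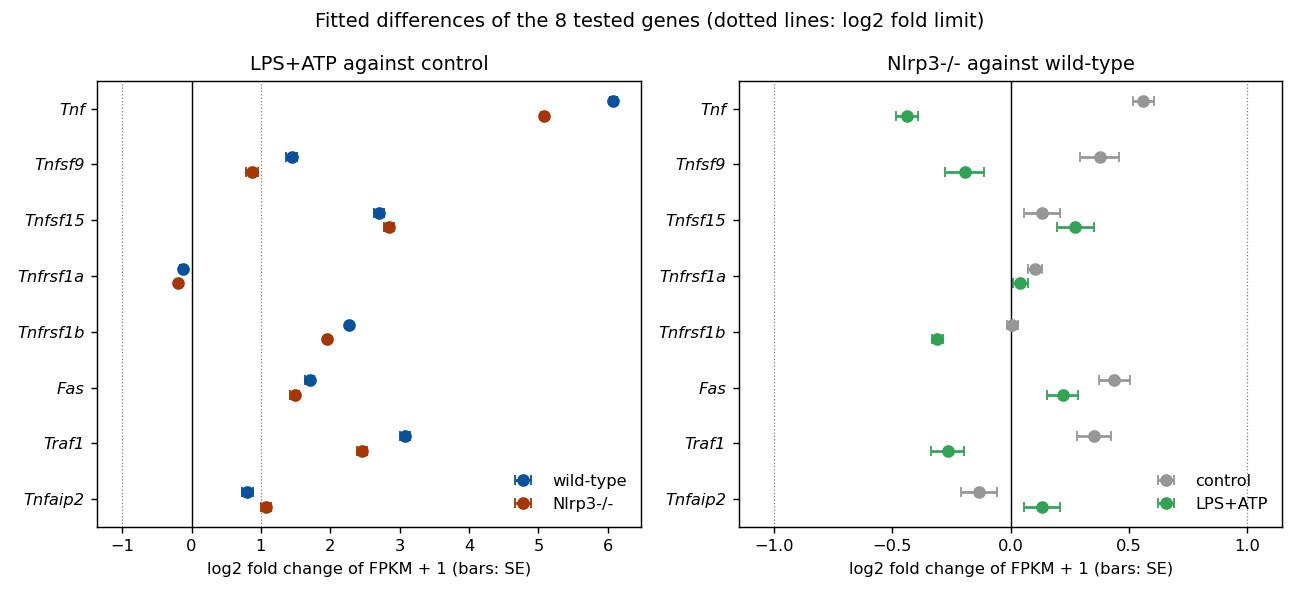
Log2 fold changes of FPKM + 1 with SE (bars) for the 8 tested genes; left, LPS+ATP against control in wild-type and Nlrp3-/- BMDMs; right, Nlrp3-/- against wild-type in control and LPS+ATP BMDMs. Dotted lines mark the DEG limit of 1 in either direction; Tnf differs between genotypes by 0.56 in control and by -0.44 with LPS+ATP.

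The comparison of genotypes set Nlrp3-/- beside wild-type BMDMs. The mice also differed in donor sex and in supplier, so that loss of NLRP3 cannot be told apart from either. In control BMDMs, 0 of the 9 genes met the DEG limits for genotype, where 6.02% of tested genes were DEGs higher and 0.689% DEGs lower in Nlrp3-/-. By limma's adjusted p alone, 5 were higher in Nlrp3-/- (33.3% of tested genes were) and 0 lower (14.5% were). At an unadjusted p under 0.05 the same 5 passed, with no share of all tested genes computed at that limit. The difference of Tnf was the clearest, with a log2 fold change of 0.56 (SE 0.05, adjusted p = 1.241e-06 by limma), a mean FPKM 1.54-fold that of wild-type. Fas was higher by 0.44, Tnfsf9 by 0.38, Traf1 by 0.35 and, only as deposited and with a reversed sign after either other scaling, Tnfrsf1a by 0.10 on the log2 scale (adjusted p = 0.0001847, 0.002783, 0.001672 and 0.01804 by limma). For Tnfsf15, Tnfrsf1b and Tnfaip2 the values were 0.13, 0.01 and -0.13 (adjusted p = 0.1802, 0.8152 and 0.1788 by limma), and when each library was left out Tnfsf15 ranged from 0.07 to 0.19 and Tnfaip2 from -0.18 to -0.05. This split depended on the scaling. After upper-quartile scaling 2 of the 9 genes were higher (Tnf and Fas) and 3 lower (Tnfrsf1a, Tnfrsf1b and Tnfaip2), and after median-ratio scaling 4 were higher (Tnf, Tnfsf9, Fas and Traf1) and 2 lower (Tnfrsf1b and Tnfaip2). The share of all tested genes was not computed under these scalings. Their median moved from 0.09 as deposited to -0.09 after upper-quartile and 0.0055 after median-ratio scaling. Tnfrsf1b was at -0.22 and -0.10 under these scalings (adjusted p = 8.18e-05 and 0.008055 by limma) and Tnfaip2 at -0.36 and -0.24 (adjusted p = 0.002068 and 0.02799 by limma). After upper-quartile scaling Tnfrsf1a was at -0.12 (adjusted p = 0.01472 by limma), Tnfsf9 at 0.19 and Traf1 at 0.18 (adjusted p = 0.0776 and 0.0514 by limma), so that of the 5 only Tnf and Fas kept their side of the adjusted p limit under all alternatives tried.

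With LPS+ATP, again 0 of the 9 genes met the DEG limits for genotype, where 4.48% of tested genes were DEGs higher and 0.570% DEGs lower in Nlrp3-/-. By limma's adjusted p alone, 2 were higher (Tnfsf15 and Fas) and 3 lower (Tnf, Tnfrsf1b and Traf1), where 35.9% and 12.6% of tested genes were. At an unadjusted p under 0.05 the counts were 2 higher and 4 lower, with no share of all tested genes computed at that limit. Tnf was lower in Nlrp3-/- by a log2 fold change of -0.44 (SE 0.05, adjusted p = 1.139e-05 by limma), so that the mean FPKM of wild-type was 1.36-fold that of Nlrp3-/-. Tnfrsf1b was lower by -0.31 (adjusted p = 9.532e-07 by limma) and Traf1 by -0.27 (adjusted p = 0.009375 by limma). These 3 decreases kept their sign and stayed past the adjusted p limit in all alternatives tried. Fas was higher by 0.22 and Tnfsf15 by 0.27 (adjusted p = 0.0156 and 0.01196 by limma), but after median-ratio scaling they were at 0.09 and 0.15 (adjusted p = 0.283 and 0.119 by limma), and after upper-quartile scaling Fas was at -0.01. Tnfsf9 was at -0.19 (adjusted p = 0.07215 by limma), and after upper-quartile and median-ratio scaling at -0.42 and -0.32 (adjusted p = 0.001338 and 0.007304 by limma). Tnfrsf1a was at 0.04 (adjusted p = 0.3002 by limma), and after these scalings at -0.20 and -0.10 (adjusted p = 0.0006432 and 0.02937 by limma). Under either scaling, 0 of the 9 genes were higher in Nlrp3-/- and 5 lower, Tnf, Tnfsf9, Tnfrsf1a, Tnfrsf1b and Traf1. The share of all tested genes was not computed under these scalings, so these counts cannot be set against it. The median of all tested genes moved from 0.11 as deposited to -0.08 after upper-quartile and -0.0004 after median-ratio scaling. Tnfaip2 was at 0.13 (adjusted p = 0.1777 by limma), and after upper-quartile and median-ratio scaling at -0.11 and -0.0061 (adjusted p = 0.239 and 0.955 by limma). As deposited, Tnfaip2 libraries narrowly did not overlap, 162 to 169 FPKM against 169.8 to 200.03 FPKM.

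Markers of other cells moved with genotype as well. The 6 fibroblast markers summed to 157 to 162 FPKM in wild-type control and 1165 to 1182 FPKM in Nlrp3-/- control, and to 181 to 183 FPKM and 891 to 907 FPKM with LPS+ATP; 5 and 4 of 6 were DEGs higher in Nlrp3-/-. The 7 neutrophil markers summed to 238 to 271 FPKM and 1411 to 1456 FPKM in control, and to 312 to 323 FPKM and 631 to 636 FPKM with LPS+ATP; 6 and 3 of the 6 tested were DEGs higher. The 2 endothelial markers summed to 2.29 to 2.77 FPKM and 8.07 to 9.33 FPKM in control, and to 2.60 to 2.87 FPKM and 5.34 to 5.75 FPKM with LPS+ATP; 2 and 0 were DEGs higher. No marker of these 3 lists was listed at 0 throughout a group. Among the neutrophil markers, Lcn2 rose with LPS+ATP from 9.96 to 218 FPKM in wild-type and from 43.2 to 208 FPKM in Nlrp3-/-. The other 5 tested fell in each genotype by limma's adjusted p. In wild-type, Lcn2 thus made up most of the neutrophil sum with LPS+ATP. The 8 macrophage markers summed to 19974 to 21159 FPKM and 19071 to 19319 FPKM in control and to 11793 to 11862 FPKM and 11118 to 11366 FPKM with LPS+ATP, of which Lyz2 alone made up 80.1% to 92.1% by library. One by one, 5 of the 8 were lower in Nlrp3-/- control and 0 higher by limma's adjusted p, and 4 were lower and 0 higher with LPS+ATP, with 0 DEGs. Control means in FPKM, wild-type before Nlrp3-/-, were 1450 and 877 for Cd68, 253 and 164 for Csf1r, 237 and 184 for Adgre1, and 51.2 and 38.5 for Fcgr1. The part of these cells in the genotype differences of the TNF family was not tested.

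The interaction, the stimulation response in Nlrp3-/- less that in wild-type on the log2 scale, was tested in the same fit. By the DEG limits 0 of the 9 genes were called, where 0.721% of tested genes had a positive and 1.43% a negative DEG interaction. By limma's adjusted p alone 4 were negative (Tnf, Tnfsf9, Tnfrsf1b and Traf1) and 0 positive, where 13.0% and 14.7% of tested genes were. At an unadjusted p under 0.05 the counts were 1 positive and 5 negative, with no share of all tested genes computed at that limit. The value was -0.9995 for Tnf (SE 0.06, adjusted p = 1.318e-06 by limma), just inside the fold limit, and it ran from -1.05 to -0.95 over the alternatives. It was -0.62 for Traf1, -0.57 for Tnfsf9 and -0.32 for Tnfrsf1b (adjusted p = 0.0009492, 0.00382 and 4.39e-05 by limma). For these 4 genes the response to LPS+ATP was smaller in Nlrp3-/- BMDMs. Of them Tnf, Tnfsf9 and Traf1 also began from a higher resting level there. For Tnfsf9 and Traf1 that resting difference did not pass after upper-quartile scaling (adjusted p = 0.0776 and 0.0514 by limma). The values of Fas, Tnfrsf1a, Tnfsf15 and Tnfaip2 were -0.22, -0.06, 0.14 and 0.27 (adjusted p = 0.1057, 0.3439, 0.3824 and 0.09307 by limma). Without wild-type control replicate 1, Fas was at -0.29 (adjusted p = 0.0204 by limma), and without Nlrp3-/- control replicate 2 at -0.27 (adjusted p = 0.0490 by limma).

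Ordered by mean FPKM, wild-type control BMDMs had Tnfrsf1b, Tnfaip2, Tnfrsf1a, Tnf, Fas, Tnfsf9, Traf1, Tnfsf13b and Tnfsf15, and no neighbours in this order overlapped. Nlrp3-/- control had the same order, with Tnfsf13b (0.476 to 0.526 FPKM) and Tnfsf15 (0.338 to 0.494 FPKM) overlapping. With LPS+ATP the order was Tnfrsf1b, Tnf, Tnfaip2, Tnfrsf1a, Traf1, Fas, Tnfsf9, Tnfsf15 and Tnfsf13b in both genotypes. Tnf thereby passed both Tnfaip2 and Tnfrsf1a, and Traf1 passed Fas and Tnfsf9. In Nlrp3-/- LPS+ATP, Tnfsf9 (8.77 to 10.5 FPKM) and Tnfsf15 (8.76 to 9.58 FPKM) overlapped. Within a library, Tnf RNA stood at 0.0377 ± 0.00165 of the FPKM of Tnfrsf1b in wild-type control and 0.597 ± 0.0198 in wild-type LPS+ATP, against 0.0578 ± 0.00273 and 0.546 ± 0.0114 in Nlrp3-/- (SD, n = 3 each).

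The wider pathway was read from 6 lists, which without the 9 genes held 84 genes, 67 of them tested. Of these 67, 19 were DEGs higher and 6 DEGs lower with LPS+ATP in wild-type BMDMs and 18 and 5 in Nlrp3-/-, where 8.25% and 11.2% of tested genes were in wild-type and 6.64% and 8.21% in Nlrp3-/-. The counts of higher genes are no support by themselves, since Lta, Tnfsf10, Tnfsf4, Tnfrsf8 and Tnfaip8l3 reached 1 FPKM in the 6 LPS+ATP libraries and in no control library, and so were tested only because they were high there. The median log2 fold change of the 67 genes was 0.11 in wild-type and 0.13 in Nlrp3-/-, beside -0.25 and -0.24 over all tested genes. Between genotypes, 6 were DEGs higher and 1 lower in control, and 7 higher and 0 lower with LPS+ATP, beside the 6.02%, 0.689%, 4.48% and 0.570% of tested genes given above.

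Of the 14 other ligands, 7 were tested. The shares of all tested genes that were DEGs higher and lower with LPS+ATP were 8.25% and 11.2% in wild-type and 6.64% and 8.21% in Nlrp3-/-. With LPS+ATP in wild-type BMDMs 2 were DEGs higher, Lta (lymphotoxin α, from 0.0928 to 5.32 FPKM) and Tnfsf10 (TRAIL, from 0.475 to 7.95 FPKM), with log2 fold changes of 2.53 and 2.60. In Nlrp3-/- BMDMs both were DEGs, at 2.44 and 2.55, and Tnfsf4 (OX40 ligand) was a DEG at 1.25, against 0.95 in wild-type (adjusted p = 1.072e-05 by limma), with an interaction of 0.30 that did not pass (adjusted p = 0.1929 by limma). Lta, Tnfsf10 and Tnfsf4 were tested only through their LPS+ATP libraries and so had to differ with stimulation. The count of higher ligands is therefore no support by itself. DEGs lower in both genotypes were Tnfsf12, from 58.5 to 10.8 FPKM in wild-type and from 38.4 to 7.92 FPKM in Nlrp3-/-, and Tnfsf13 (APRIL, a relative of BAFF), from 10.2 to 0.941 FPKM and from 3.86 to 0.600 FPKM. Tnfsf11 (RANKL, the osteoclast factor) was higher in Nlrp3-/-, by 1.35 in control and 1.42 with LPS+ATP, and Tnfsf13 was lower by -1.20 in control.

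Of the 25 other receptors, 16 were tested, and 4 were DEGs higher and 2 lower with LPS+ATP in each genotype. Over all tested genes, 8.25% were DEGs higher and 11.2% lower in wild-type, and 6.64% and 8.21% in Nlrp3-/-. Cd40, which receives T cell help, rose from 1.82 to 39.1 FPKM in wild-type and from 1.47 to 39.8 FPKM in Nlrp3-/- (log2 fold changes of 3.84 and 4.04). Tnfrsf8 (CD30), at most 0.898 FPKM in control libraries and so tested only through its LPS+ATP ones, rose by 2.03 and 1.27, Tnfrsf9 (4-1BB, the receptor of Tnfsf9) by 1.34 and 1.30, and Tnfrsf11b (osteoprotegerin, a decoy of RANKL) by 1.69 and 1.46. Tnfrsf11a (RANK) was lower by -1.25 and -1.13 and Tnfrsf13b (TACI, a receptor of BAFF and APRIL) by -1.64 and -1.48. After upper-quartile scaling Tnfrsf11a was at -0.99 in wild-type and -0.87 in Nlrp3-/-, and after median-ratio scaling at -0.91 in Nlrp3-/-, short of the DEG limit. Between genotypes, Tnfrsf11b and Tnfrsf12a (the TWEAK receptor) were DEGs higher in Nlrp3-/- in both states, at 1.45 and 1.43 in control and 1.23 and 1.38 with LPS+ATP.

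**Figure D4:**
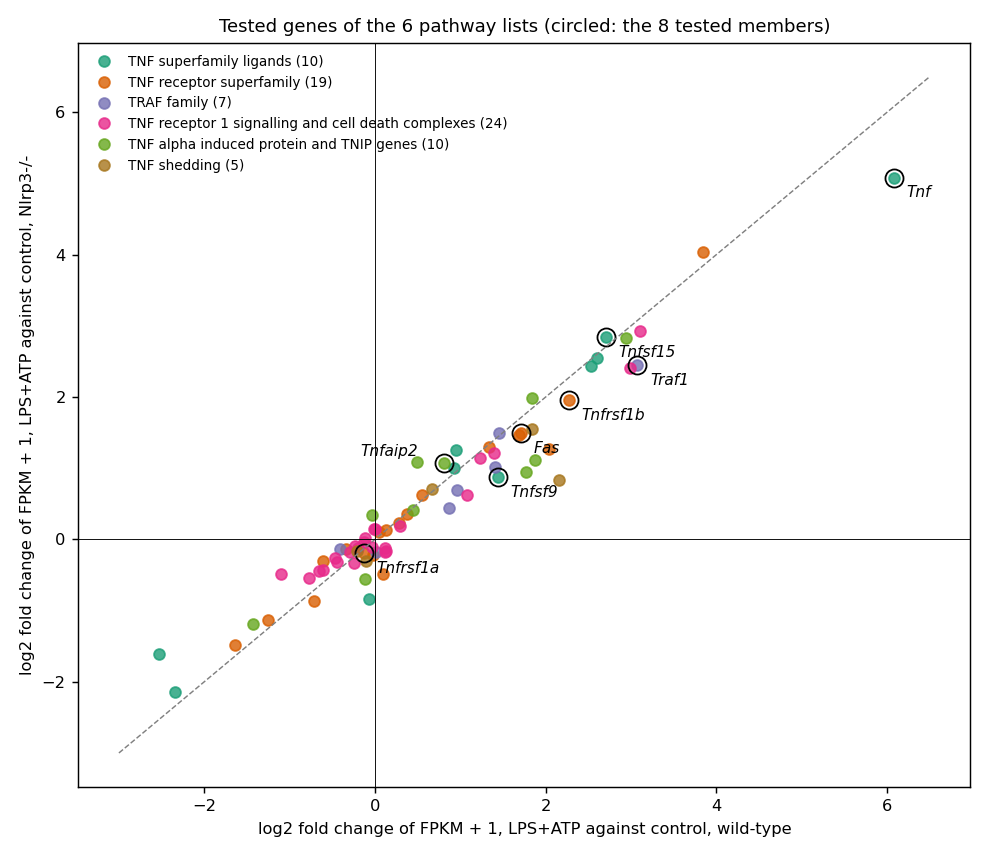
Log2 fold change of FPKM + 1 with LPS+ATP in wild-type (horizontal) and Nlrp3-/- BMDMs (vertical) for the tested genes of the 6 lists, coloured by list with the number tested; the dashed line marks equal values and circles mark the 8 tested genes of interest. Tnf, at 6.08 and 5.08, lies farthest out and below the line, and Cd40, the unlabelled receptor next to it, at 3.84 and 4.04.

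All 6 other TRAF genes were tested. Traf2, the partner of TRAF1 at TNFR2, was a DEG higher with LPS+ATP in both genotypes at 1.40 and 1.01, and so was Traf5 at 1.45 and 1.49. In Nlrp3-/- Traf2 was at 0.98 without Nlrp3-/- LPS+ATP replicate 1 and at 0.99 without Nlrp3-/- control replicate 3, short of the DEG limit. Traf4 was a DEG higher in Nlrp3-/- in control (1.39) and with LPS+ATP (1.21). In the list of TNFR1 signalling and cell death complexes, with 24 of 24 tested, 5 were DEGs higher and 1 lower in wild-type and 4 and 0 in Nlrp3-/-. The shares of all tested genes were 8.25% and 11.2% in wild-type and 6.64% and 8.21% in Nlrp3-/-. Cflar (c-FLIP, which restrains caspase-8) rose from 7.43 to 66.02 FPKM in wild-type and from 8.12 to 47.4 FPKM in Nlrp3-/-, and Mlkl (the effector of necroptosis) from 10.9 to 102 FPKM and from 10.02 to 82.8 FPKM. Birc3 (cIAP2) rose by 1.39 and 1.22 and Rnf31 (HOIP of the linear ubiquitin ligase) by 1.23 and 1.14. Ikbkg (NEMO) was a DEG in wild-type alone by the limits, at 1.07 (0.94 without wild-type LPS+ATP replicate 3 and 0.95 without wild-type control replicate 1) against 0.62 in Nlrp3-/-, with an interaction of -0.45 that did not pass (adjusted p = 0.282 by limma). Otulin, which removes linear ubiquitin, was at -1.10 (-0.81 after upper-quartile scaling, short of the DEG limit) and -0.49, with an interaction of 0.61 (adjusted p = 0.0002594 by limma). Between genotypes 0 of the 24 were DEGs in either state, while 9 in control and 10 with LPS+ATP passed limma's adjusted p alone (6 higher and 3 lower, and 6 higher and 4 lower), where 33.3% and 14.5% of tested genes did in control and 35.9% and 12.6% with LPS+ATP.

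Of the 10 other TNF-induced protein and TNIP genes, 9 were tested, and 4 were DEGs higher and 1 lower with LPS+ATP in each genotype. The shares of all tested genes were 8.25% and 11.2% in wild-type and 6.64% and 8.21% in Nlrp3-/-. Tnfaip3 (A20, which limits NF-κB signalling) was 6.13 ± 2.28 FPKM in wild-type control and 53.3 ± 16.1 FPKM in wild-type LPS+ATP (SD, n = 3 each). Its log2 fold changes were 2.94 and 2.83. Tnip1, a partner of A20, rose by 1.84 and 1.99, and Tnfaip8l3, at most 0.341 FPKM in control libraries and so tested only through its LPS+ATP ones, by 1.87 and 1.12. Tnip3 was at 1.77 and 0.94 with an interaction of -0.83 (adjusted p = 6.186e-06 by limma). Tnfaip6 (TSG-6) was at 0.49 and 1.09 and was a DEG higher in Nlrp3-/- with LPS+ATP, at 1.52. Tnfaip8l2 (TIPE2) was the one that was lower, at -1.43 and -1.19. In Nlrp3-/- it was at -0.94 after median-ratio and -0.90 after upper-quartile scaling, short of the DEG limit. Of the 5 genes of TNF shedding, Rhbdf2, a rhomboid protein that carries ADAM17 to the surface, rose by 1.83 and 1.56 and Adam17 by 0.67 and 0.71. Adam17 was 22.9 FPKM in wild-type control replicate 3 against 39.96 and 40.3 FPKM in the other libraries of that group, and without it the wild-type value dropped to 0.40 on the log2 scale (limma, adjusted p = 0.0007389). Timp3, an inhibitor of ADAM17 that fibroblasts also make, was 4.70 FPKM in wild-type control, 24.3 FPKM in wild-type LPS+ATP, 32.6 FPKM in Nlrp3-/- control and 58.7 FPKM in Nlrp3-/- LPS+ATP. It was a DEG higher in Nlrp3-/- in both states, at 2.56 and 1.2399, beside the fibroblast markers given above. Rhbdf1 was also higher in Nlrp3-/-, at 1.20 and 1.01, the latter 0.96 after median-ratio and 0.90 after upper-quartile scaling.

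The genes whose log2(FPKM + 1) ran most like that of each gene over the 12 libraries were found by Pearson's r, given as a description, since all libraries share the step between control and LPS+ATP. For Tnf they were Tarm1, Saa3 and Il1b, each with r = 0.9997. For Tnfrsf1b they were Il1rn, Il1a and Sqstm1 (r = 0.9995, 0.9995 and 0.9994), and for Traf1 they were Slamf1, Serpinb9 and Tma16 (r = 0.9990, 0.9988 and 0.9986). For Tnfsf15 they were Ascc3, H2-M2 and Csf3 (r = 0.9981, 0.9980 and 0.9977), for Fas Cct3, Acpp and Il13ra1 (r = 0.9982, 0.9968 and 0.9968) and for Tnfsf9 Upp1, Rapgef2 and Gm5345 (r = 0.9936, 0.9924 and 0.9904). Tnfaip2 ran most like Dusp28, Gm6548 and Irgm2 (r = 0.9875, 0.9862 and 0.9844). Tnfrsf1a stood apart, with Usp22, Tnrc6c and Tnrc18 at r = 0.9742, 0.9727 and 0.9721, and 54 genes over r = 0.95 where Tnf had 940.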

How the data were processed

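RNA of 12 BMDM libraries was sequenced by the authors, who deposited 1 table of FPKM per gene and library. The submitters' processing notes name the genome build GRCm39, and the aligner, counter and annotation are not given in the sources used here. FPKM carry no counts, so no count test was run, no depth in reads is known, and no scaling between libraries beyond FPKM was applied. Groups and replicate numbers came from the labels, and 0 columns of library values were left unused.

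The 12622 of 55335 genes that reached 1 FPKM in 3 or more libraries were fitted on log2(FPKM + 1) with limma 3.58.1 in R 4.3.3, with a mean for each of the 4 groups over all 12 libraries and a trend in the variance. Benjamini-Hochberg adjustment ran over all tested genes in each of the 5 comparisons. The 9 genes and the 6 pathway lists were chosen with earlier results of these data known. Named beside them were listed genes called in at least 1 pairwise comparison and listed genes flagged by the adjusted p of the interaction. At most 3 other uncalled genes per list and the 3 genes of highest Pearson's r with each tested member were also named. Motifs were searched with Python 3.11.15 in RefSeq windows of GRCm38.p6, and exon overlaps were taken from GENCODE. Alternatives were the pseudocount, the filter, TPM, upper-quartile and median-ratio scaling, no fold limit, no trend, the compared groups alone, a replicate block and leaving out each library. For listed genes other than the 9, scaling and left-out libraries were added after seeing the data.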

Additional observations from a re-analysis of the deposited data

Results flagged for a closer look

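In these results the response to LPS+ATP differed between genotypes by an interaction term (Nlrp3-/- less wild-type, log2 scale) with a limma adjusted p under 0.05. Of the 9 genes, 4 did so, all negative: Tnf at -1 (-0.9995 before rounding), Traf1 at -0.62, Tnfsf9 at -0.57 and Tnfrsf1b at -0.32 (adjusted p = 1.318e-06, 0.0009492, 0.00382 and 4.39e-05).

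Of the 67 other tested genes of the pathway lists, 18 did so, 13 negative and 5 positive, where 13.0% of all tested genes were negative and 14.7% positive. Timp3, an inhibitor of ADAM17, had -1.32 (limma adjusted p = 1.005e-07) and was the one of the 18 past the fold limit of a DEG. Tnip3, which encodes a partner of A20, had -0.83 and the TNFAIP8 family gene Tnfaip8l3 had -0.75. The ligand gene Tnfsf14 had -0.77, and the receptors Tnfrsf8 and Tnfrsf26 had -0.77 and -0.58. Cflar had -0.58, Traf6 -0.42, Traf2 -0.39, Tab3 -0.29, Chuk -0.29, Rhbdf2 -0.28 and Birc3 -0.18. On the positive side stood Tnfsf13 at 0.92, Otulin at 0.61, Tnfaip6 at 0.60, Tradd at 0.20 and Ripk1 at 0.18. The adjusted p of these 18 genes by limma was at most 0.0449, for Tradd. Tradd did not pass after median-ratio or upper-quartile scaling (adjusted p = 0.0848 and 0.0501 by limma) or in most fits with a library left out. Ripk1 did not pass after median-ratio scaling (adjusted p = 0.0563 by limma). Ripk1 and Chuk also failed in some fits with a library left out, as Chuk without Nlrp3-/- control replicate 2 (adjusted p = 0.0635 by limma).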

How the results depend on the processing

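Of 40 log2 fold changes of the 8 tested genes, 28 kept their sign and their side of the DEG limits in every alternative, and the cause of the other changes was not tested. The number of the 9 genes called in the interaction was 1, Tnf, at a pseudocount of 0.1, with TPM, and after upper-quartile or median-ratio scaling (values -1.05, -1.03, -1.04 and -1.04), and 0 to 1 when each library was left out. It was 1 without wild-type control replicate 2 or 3, wild-type LPS+ATP replicate 2 or 3, Nlrp3-/- control replicate 3 or Nlrp3-/- LPS+ATP replicate 2. With no fold limit the counts were 5 between genotypes in control, 5 with LPS+ATP and 4 in the interaction.

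Values reversed under upper-quartile and median-ratio scaling for Tnfrsf1a (0.18 and 0.16 for stimulation in wild-type, 0.0977 and 0.0634 in Nlrp3-/-, -0.12 and -0.0011 between genotypes in control, -0.20 and -0.10 with LPS+ATP), Tnfrsf1b in control (-0.22 and -0.10, and -0.0134 to 0.0239 when each library was left out, the lowest without wild-type control replicate 1) and Tnfaip2 between genotypes with LPS+ATP (-0.11 and -0.0061). Fas with LPS+ATP reversed to -0.0126 after upper-quartile scaling, and the interaction of Tnfsf15 to -0.12 at a pseudocount of 0.1 and -0.0135 after upper-quartile scaling. By adjusted p alone, 11 results of the 9 genes crossed the limit under at least 1 alternative, 9 of them between genotypes.

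The replicate numbers showed no sign of pairing. Deviations of same-numbered libraries correlated at -0.06 to 0.05 over 12 pairs, against -0.05 to 0.10 over 24 other pairs. The labels state no pairing, and these values cannot exclude one. With a replicate block the counts were 6, 6, 0, 0 and 0, as without it, and Tnfsf9 between genotypes with LPS+ATP, at -0.19, had an adjusted p of 0.0267 by limma. With 3 libraries a group and FPKM alone, precision at low levels, as for Tnfsf13b and resting Tnfsf15, cannot be set against reads.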
